A study of Mus musculus with 36 samples.

Results

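DNA methylation is written and erased by a small group of enzymes, of which 4 mRNAs are described here in cardiac macrophages: Dnmt3a and Dnmt1, which add methyl groups to cytosine, and Tet2 and Tet3, which oxidise them. They are 4 of the 12795 genes in the count table and were taken by gene name. The set was selected on measured values: Dnmt3a had been seen to rise with TFEB in CCR2-negative cells, so the values in that comparison describe the choice and are not evidence.

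The libraries are polyA RNA of flow-sorted macrophages from mouse hearts 7 days after 90 min of ischemia, which followed 7 days of tamoxifen feeding. TFEB drives transcription of genes for lysosomes and autophagy. TFEB-TG samples carried an expression cassette for it behind a floxed stop sequence, and TFEB-wt samples carried no cassette. Cells were sorted into fractions without and with CCR2, the receptor by which monocytes are drawn to tissue (CCR2neg and CCR2pos).

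Each genotype and fraction had a group labelled Cre-neg and a second group, called CX3CR1-Cre where the genotype was TFEB-wt and mac-TFEB where it was TFEB-TG. The labels describe all samples as carrying a tamoxifen-inducible Cre driven by Cx3cr1 and a floxed-stop Td-Tomato reporter, and do not say how Cre-neg cells differed. Cx3cr1 is active in many macrophages and monocytes, so the driver is not limited to the heart. The 4 TFEB-TG groups held 4 libraries each and the 4 TFEB-wt groups 5 each, 36 in all. A label number within a genotype, such as TFEB-TG 3, recurs in 4 libraries, 1 per group. Whether the libraries of a group stem from different animals is not in the labels, so p-values measure the spread between these samples, part of which may be technical.

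Dnmt3a sets methylation on DNA that carried none, and Dnmt1 copies the pattern to the new strand when DNA is replicated. TET enzymes turn methylcytosine into oxidised forms that are diluted by replication or cut out by base excision repair. In blood and its myeloid descendants, loss of DNMT3A or TET2 is known for letting stem-cell clones expand and for altering the inflammatory output of macrophages.

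The DNA before a pair of start sites is shown because Dnmt3a is read from separate start sites and because the study manipulated TFEB, which recognises E-box motifs. The gene (ENSMUSG00000020661) lies on the plus strand of chromosome 12, from 3806007 to 3914443 (GRCm38, GENCODE vM21). RefSeq places the start of one transcript at 3806980 and that of another at 3891744, inside the gene. The transcript annotated from 3891744, Dnmt3a-203, codes for 689 amino acids, against 908 for Dnmt3a-201, which begins upstream at 3807030. Printed 5′ to 3′ are the 250 bases before each of these RefSeq starts (GRCm38.p6, plus strand), at chr12:3806730-3806979 and chr12:3891494-3891743. Capitals mark the E-box CACGTG, which reads the same on both strands.
Dnmt3a upstream start: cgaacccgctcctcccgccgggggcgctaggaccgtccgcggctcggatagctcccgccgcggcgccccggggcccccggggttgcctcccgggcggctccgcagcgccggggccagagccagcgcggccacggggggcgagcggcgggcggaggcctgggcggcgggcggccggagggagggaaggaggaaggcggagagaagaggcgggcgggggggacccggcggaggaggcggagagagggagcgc
Dnmt3a internal start: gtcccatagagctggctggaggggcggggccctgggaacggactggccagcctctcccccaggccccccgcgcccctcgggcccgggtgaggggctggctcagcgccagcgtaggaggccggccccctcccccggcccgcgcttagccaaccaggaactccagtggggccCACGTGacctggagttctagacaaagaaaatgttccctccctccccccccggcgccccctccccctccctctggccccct

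The internal start had 1 E-box, at 3891664 to 3891669, which begins 80 bases before the start. The upstream stretch had no CACGTG and held 38 CpG steps, against 15 before the internal start. In windows of 300 bases (250 before and 50 after a start), none of the other Dnmt3a, Dnmt1, Tet2 and Tet3 windows in the RefSeq table held CACGTG. Dnmt1 (ENSMUSG00000004099) lies on the minus strand of chromosome 9 from 20907209 to 20959888, Tet2 (ENSMUSG00000040943) on that of chromosome 3 from 133463679 to 133545139, and Tet3 (ENSMUSG00000034832) on that of chromosome 6 from 83362373 to 83459084. Of all 32851 such windows, from 27025 genes, 7.15% held it. Tet2 had the window richest in CpG among the 4 genes, with 57 steps, where the median of all windows was 7. The deposited counts are summed over each gene and do not separate transcripts by start site. No data on methylation or on TFEB binding were analysed here.

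The 4 mRNAs were measured at 501 to 6646 reads per library. Total counts ran from 13797484 to 32645783 per library. Macrophage markers were present throughout, with 11 of 11 listed markers measured and a summed level of 33575 to 48190 CPM (read counts scaled here to library size by TMM). Ccr2 read 27.3 to 114 CPM in CCR2neg and 302 to 1247 CPM in CCR2pos libraries. Tfeb read 60.4 to 335 CPM in the 8 mac-TFEB libraries, 12.4 to 51.0 CPM in the 8 TFEB-TG Cre-neg libraries and 4.42 to 11.5 CPM in TFEB-wt. In bulk libraries, a change in the make-up of the sorted cells and a change of RNA per cell cannot be told apart.

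On the scale of CPM per kilobase of the longest coding transcript, Dnmt3a averaged 10.8 ± 2.81, Dnmt1 8.51 ± 1.41, Tet3 7.79 ± 1.25 and Tet2 5.17 ± 0.872 (SD over 36 libraries). The choice of length sets part of this order: per kilobase of merged exons, Dnmt3a and Dnmt1 were at 6.30 and 6.19, and Tet2 and Tet3 at 2.76 and 2.77. The sister enzymes were scarcer. Dnmt3b, the other de novo enzyme, read 2.03 to 6.35 CPM. Tet1, best known from stem cells, read 0 to 2.07 CPM, with no read in 6 libraries.

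Dnmt3a showed its highest levels in CCR2neg mac-TFEB cells, its next in the other TFEB-TG groups, and its lowest in TFEB-wt. CCR2neg mac-TFEB libraries 1 to 4 read 148, 130, 217 and 154 CPM. CCR2neg CX3CR1-Cre libraries 1 to 5 read 82.2, 102, 96.9, 88.2 and 87.9 CPM. All 4 libraries with induced TFEB lay above all 5 controls, by a log2 fold change of 0.83 ± 0.12 (standard error of the fit) or 1.77-fold. This is the comparison that picked Dnmt3a, and no test is given. In the same comparison 1.38% of the 12795 genes passed an adjusted p of 0.05 and 2.81% had all libraries with induced TFEB above all controls, from which nothing is read about Dnmt3a.

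The CCR2pos fraction, which the choice did not use, gave a smaller difference in the same direction. Its libraries carry the same label numbers as the CCR2neg libraries. Same-label pairs of the same Cre status correlated between fractions at a mean of 0.486 in their deviations from group means. This fraction is therefore not independent of the choice. CCR2pos mac-TFEB libraries read 117, 103, 138 and 104 CPM for Dnmt3a. CCR2pos CX3CR1-Cre libraries read 88.9, 96.4, 88.8, 92.9 and 91.8 CPM. All 4 TFEB values lay above all controls, which was so for 1.19% of all genes. The log2 fold change was 0.33 ± 0.12 (95% interval 0.09 to 0.57), and the adjusted p was 1 (edgeR's quasi-likelihood test over 12795 genes, of which 0.0391% passed). Dnmt3a was the only one of the 4 mRNAs whose groups did not overlap here, and none of the 4 passed. Dendritic cell markers, 8 of 8 measured, summed to 156 to 249.1 CPM in these mac-TFEB and 154 to 237 CPM in these control libraries, and monocyte markers, 6 of 6, to 432 to 904 and 431 to 1067 CPM. As a description, the TFEB difference of Dnmt3a was larger in CCR2neg than in CCR2pos cells by 0.50 ± 0.18 on the log2 scale.

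TFEB-TG cells labelled Cre-neg were next set against TFEB-wt cells with the same label, to read the cassette. In CCR2neg TFEB-TG Cre-neg libraries Dnmt3a read 89.8, 98.3, 147 and 111 CPM. CCR2neg TFEB-wt Cre-neg libraries read 85.8, 100.3, 97.8, 83.4 and 102 CPM. Library 3 of TFEB-TG stood highest and the groups overlapped, at 0.25 ± 0.12 with an adjusted p of 0.389 (edgeR, 0.406% of genes passing). Without that library the difference in Dnmt3a was 0.0905. In CCR2pos cells TFEB-TG Cre-neg libraries read 101, 82.4, 111 and 98.6 CPM. TFEB-wt Cre-neg libraries there read 91.4, 82.2, 83.9, 90.4 and 91.1 CPM. These overlapped too, at 0.16 ± 0.12 with an adjusted p of 1, in a comparison where 0.0313% of genes passed. Tfeb itself was above its TFEB-wt range in every one of these 8 Cre-neg libraries, so they are not free of the transgene's signal.

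**Figure D1:**
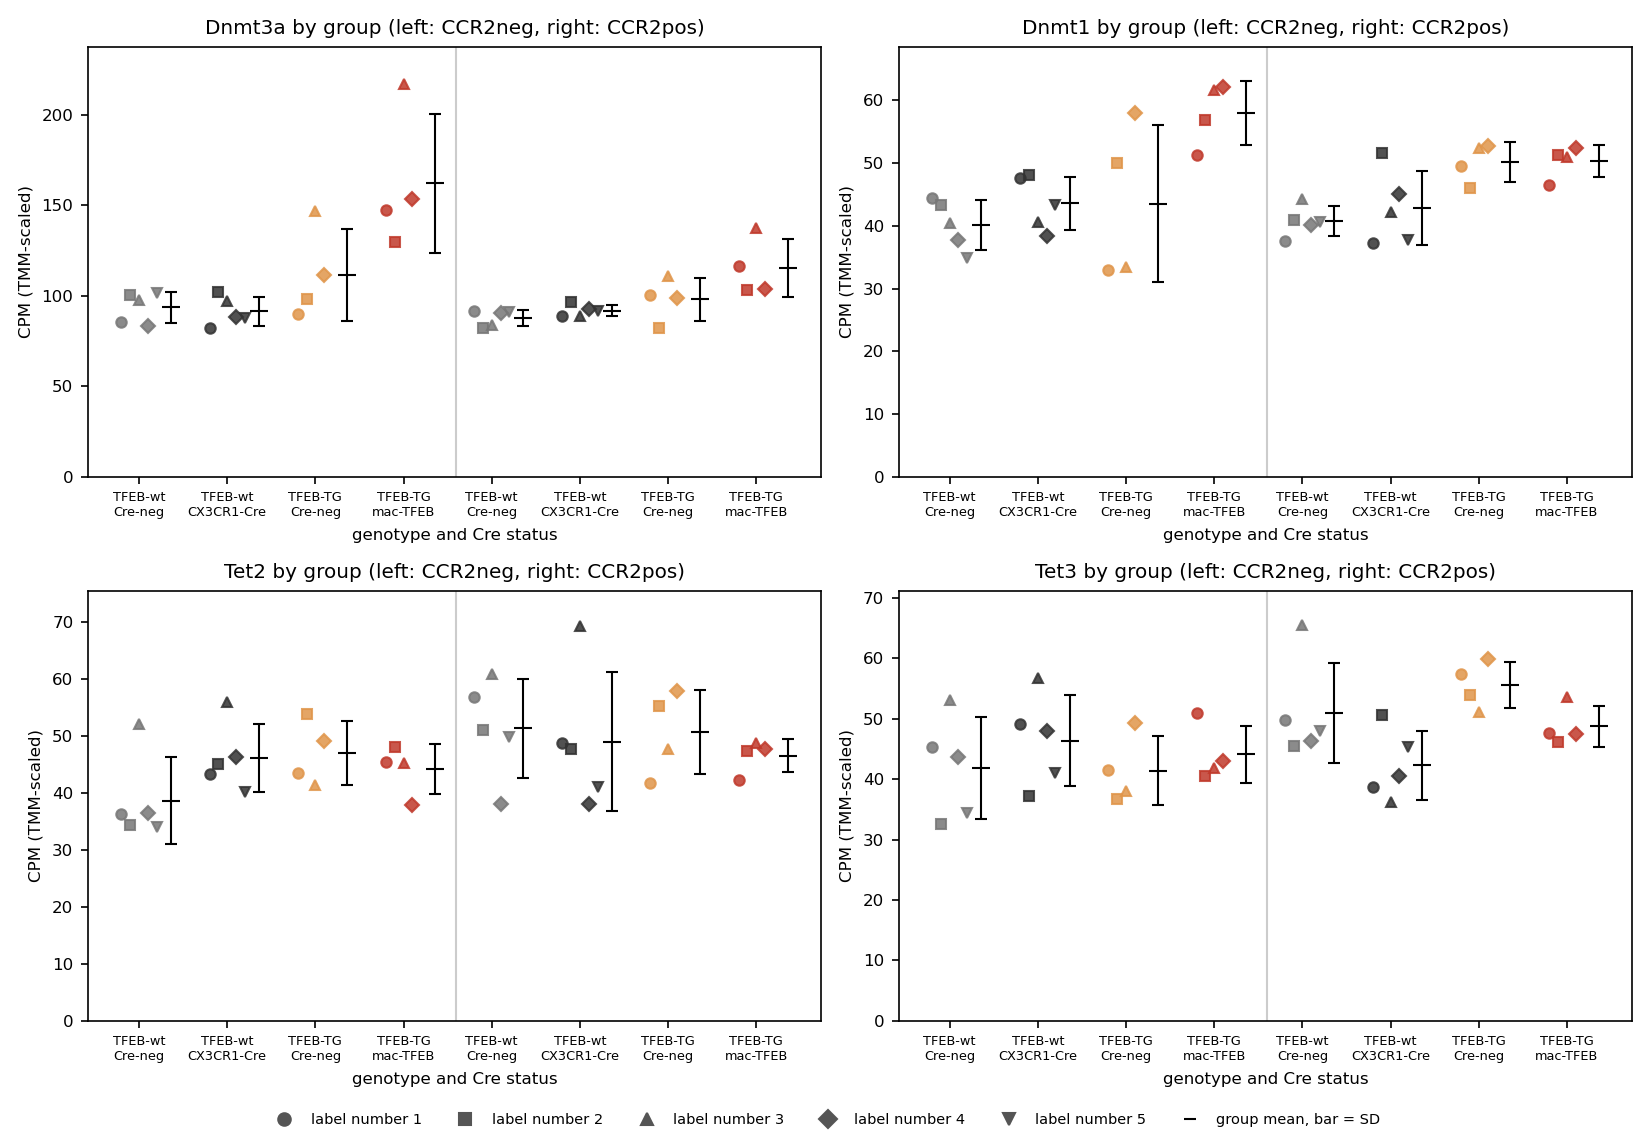
CPM of Dnmt3a, Dnmt1, Tet2 and Tet3 (vertical axes, from 0) in the 8 groups, with 1 point per library, the marker shape giving the label number, and the group mean with its SD. For Dnmt3a all 4 CCR2neg mac-TFEB libraries sit at 130 to 217 CPM, and triangles (number 3) are highest in all 4 TFEB-TG groups.

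Within TFEB-TG, libraries can be set side by side by label number. The share of all genes that ran in the same direction in every label number was not computed. Such agreement is therefore a description, here and below. In CCR2neg cells mac-TFEB exceeded Cre-neg in Dnmt3a for all 4 numbers, by 0.40 to 0.72 on the log2 scale, with a fitted 0.54 ± 0.13 that is given as a description since these mac-TFEB libraries picked the gene. In CCR2pos cells it did so for all 4 numbers as well, by 0.08 to 0.33, and the fitted difference of 0.23 ± 0.13 had an adjusted p of 1 (edgeR, 0.0156% of genes passing). Set against Cre-neg, CX3CR1-Cre libraries of TFEB-wt gave no common direction, with 2 of 5 numbers higher in CCR2neg and 4 of 5 in CCR2pos cells. The fitted values there were -0.04 ± 0.12, without a test, and 0.06 ± 0.12, with an adjusted p of 1.

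When the Cre-neg difference of the cassette was subtracted, Dnmt3a stood at 0.17 ± 0.18 in CCR2pos cells (95% interval -0.18 to 0.52, adjusted p of 1). By edgeR 0 genes passed in that subtraction, and 145 had an unadjusted p under 0.05. In CCR2neg cells 0.57 ± 0.18 remained, as a description. Each of these subtractions shares libraries with the comparisons above.

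**Figure D2:**
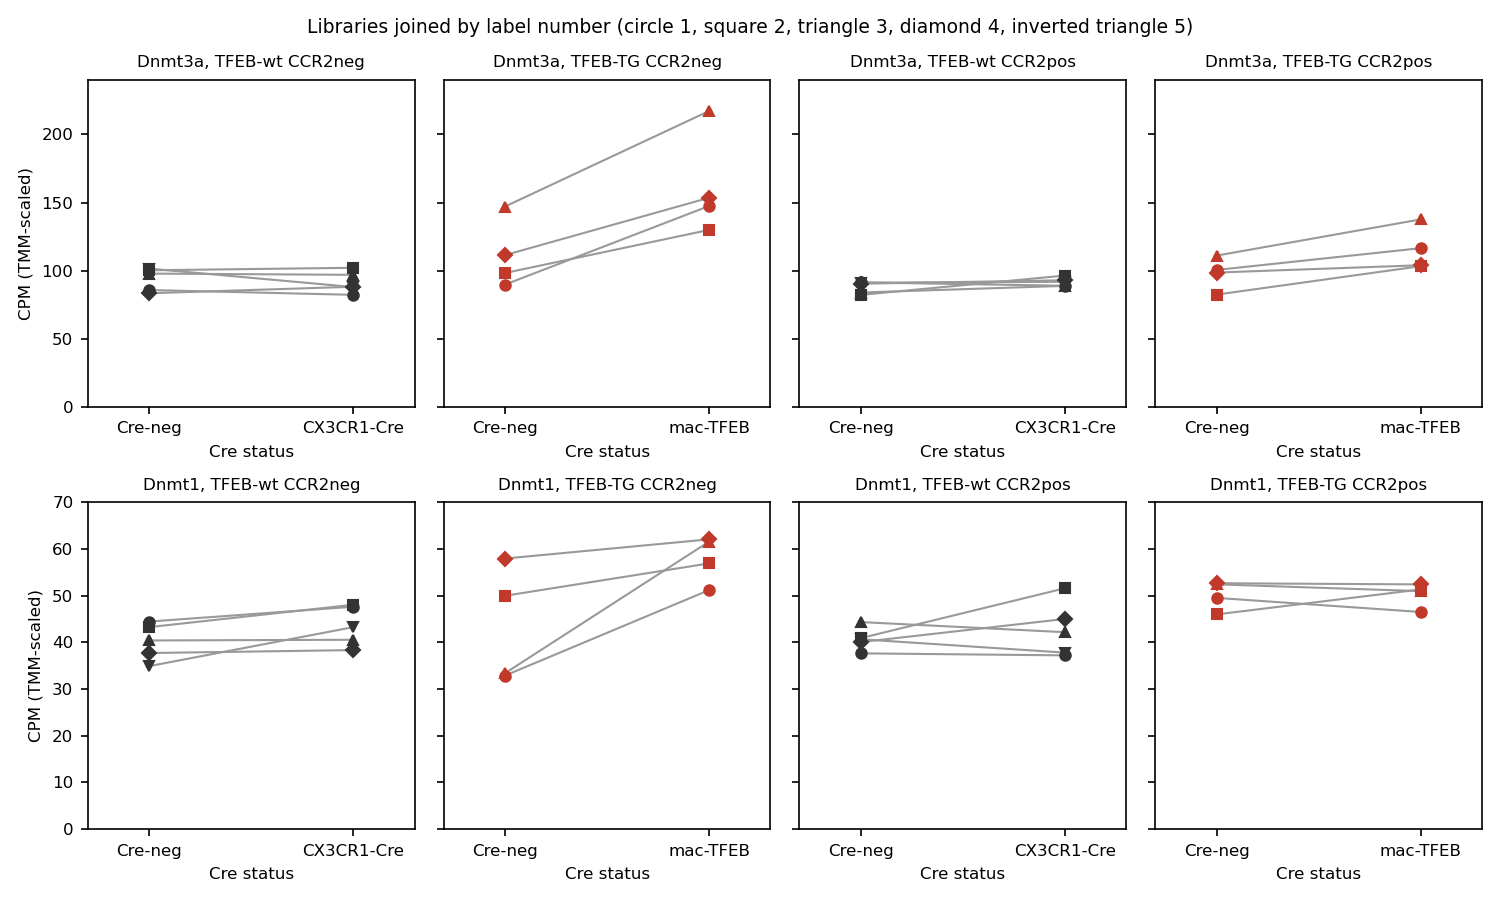
Dnmt3a (top) and Dnmt1 (bottom) in CPM from 0, Cre-neg on the left and the Cre group on the right of each panel, with lines joining libraries of 1 label number. In TFEB-TG CCR2neg cells all 4 lines slope up for both genes, and in TFEB-TG CCR2pos cells all 4 do for Dnmt3a but not for Dnmt1.

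The highest Dnmt3a and the highest Tfeb fell in different mac-TFEB libraries of each fraction. Whether Dnmt3a depends on the amount of Tfeb was not tested. In CCR2neg mac-TFEB cells Tfeb read 335, 249.98, 98.1 and 67.4 CPM in libraries 1 to 4, and library 3, with a Tfeb below that of libraries 1 and 2, had the most Dnmt3a. In CCR2pos mac-TFEB cells Tfeb read 225, 279.8, 60.4 and 68.2 CPM, and library 3, the lowest in Tfeb, again had the most Dnmt3a. Set against Cre-neg of the same label number, Dnmt3a was higher by 0.72, 0.40, 0.56 and 0.46 in CCR2neg libraries 1 to 4. In CCR2pos libraries these log2 differences were 0.21, 0.33, 0.31 and 0.08. Label TFEB-TG 3 held the highest Dnmt3a of all 4 TFEB-TG groups, the Cre-neg ones included. Without its 4 libraries the differences in Dnmt3a were 0.65 ± 0.09 in CCR2neg and 0.23 ± 0.09 in CCR2pos cells, a choice made after the data were seen. Xist passed 10 CPM in every library of TFEB-wt 2 to 5 and of TFEB-TG 3 and 4, and in no library of TFEB-wt 1, TFEB-TG 1 or TFEB-TG 2. Labels TFEB-TG 1 and 2 also held the higher Tfeb in mac-TFEB cells of both fractions. The level of Tfeb and Xist status therefore cannot be told apart among mac-TFEB libraries. A fit with a term for Xist gave 0.88 ± 0.11 and 0.39 ± 0.11 for the same 2 differences, the second with an adjusted p of 0.243 (edgeR).

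**Figure D3:**
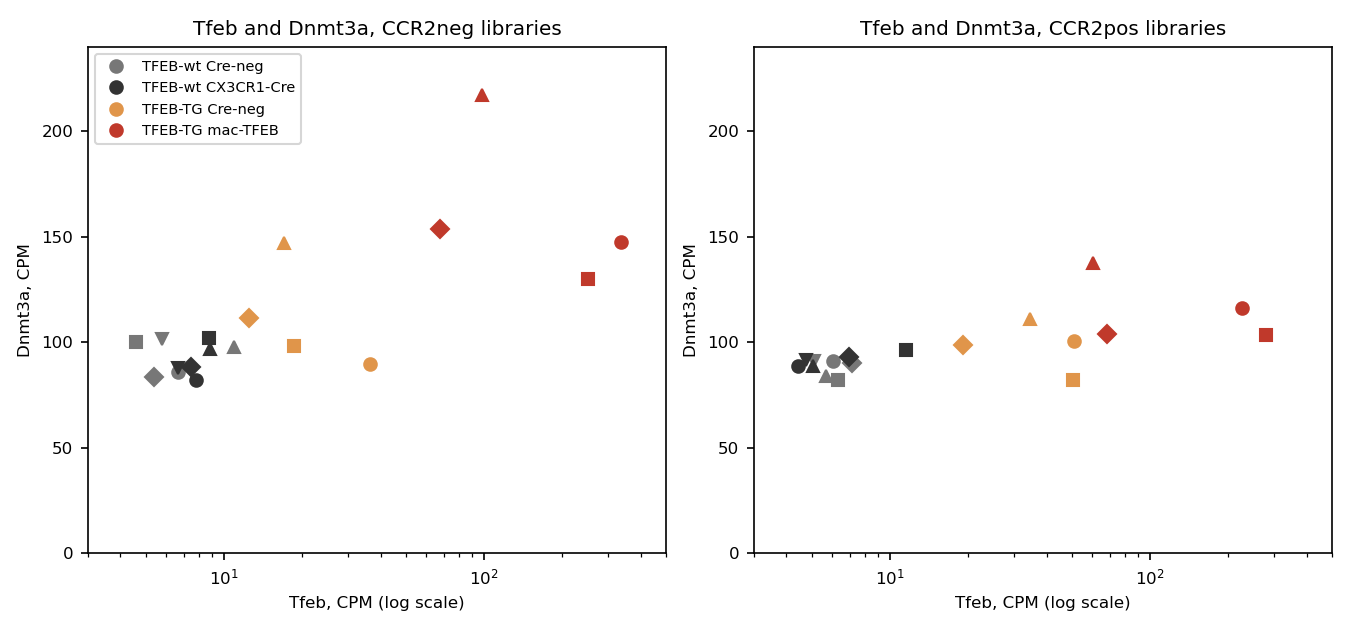
Dnmt3a (vertical axis, CPM) against Tfeb (horizontal axis, CPM on a log scale) in CCR2neg (left) and CCR2pos (right) libraries, colored by group and shaped by label number as in the plot of levels by group. The mac-TFEB libraries with the most Tfeb, up to 335 CPM, are not those with the most Dnmt3a.

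Between fractions, no tested difference in Dnmt3a passed, and whether the groups differ in it was not tested. In mac-TFEB cells all 4 numbers were lower in CCR2pos than in CCR2neg, with a fitted -0.49 ± 0.13 that is a description. TFEB-TG Cre-neg cells were at -0.19 ± 0.13 (adjusted p of 0.526, with 3.26% of genes passing), and at -0.024 without CCR2neg library 3. TFEB-wt Cre-neg cells were at -0.09 ± 0.12 (adjusted p of 0.905, 2.35% passing), and CX3CR1-Cre cells at 0.005 ± 0.12, without a test. By group means the order of Dnmt3a ran from 162 ± 38.1 CPM (SD, n = 4) in CCR2neg mac-TFEB and 115 ± 16.0 in CCR2pos mac-TFEB to 87.8 ± 4.38 (SD, n = 5) in CCR2pos TFEB-wt Cre-neg cells. Below the first of these, neighbours in the order differed by less than the larger of their SDs.

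A small part of this gene overlaps another. The antisense transcript Dnmt3aos shares 133 exon bases with Dnmt3a, and the library kit did not record strand. Dnmt3aos, at 0.940 to 9.25 CPM, was also higher in CCR2neg mac-TFEB libraries (6.68 ± 1.72 CPM, SD, n = 4) than in CCR2neg CX3CR1-Cre libraries (2.31 ± 0.915, SD, n = 5). In CCR2pos cells it stood at 3.77 ± 1.24 against 1.54 ± 0.344. The labels do not say how reads in the shared bases were counted, and the level of Dnmt3aos is small beside that of Dnmt3a in every library.

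Dnmt1 was likewise highest in CCR2neg mac-TFEB cells, where genes of cell division were at their highest too. CCR2neg mac-TFEB libraries read 51.2, 56.9, 61.6 and 62.1 CPM. CCR2neg CX3CR1-Cre libraries read 47.6, 48.1, 40.5, 38.3 and 43.3 CPM. The groups did not overlap, and 2.81% of all genes had the mac-TFEB group wholly above. They differed in Dnmt1 by 0.41 ± 0.12 on the log2 scale, a description because the comparison is that of the choice. In CCR2pos cells mac-TFEB libraries read 46.5, 51.3, 51.0 and 52.4 CPM. CCR2pos CX3CR1-Cre libraries read 37.2, 51.6, 42.2, 45.0 and 37.8 CPM. One control, library 2, lay among the TFEB values, and the difference of 0.23 ± 0.12 (95% interval -0.01 to 0.48) had an adjusted p of 1.

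In TFEB-TG CCR2neg cells the Cre-neg libraries of Dnmt1 split into low and high values, 32.9, 50.0, 33.4 and 57.9 CPM. Each label number was higher in mac-TFEB, by 0.10 to 0.88 on the log2 scale. The fitted difference of 0.41 ± 0.13 did not pass over all genes (adjusted p of 0.282, edgeR, 0.156% of genes passing). It passed with the label number as a block, at 0.43 ± 0.12 with an adjusted p of 0.0449, where 301 of 12795 genes passed. Among 8 edgeR fits that each left out 1 library, the smallest adjusted p was 0.0389, at 0.58. That was without Cre-neg library 4, the highest of its group. Monocyte markers summed to 156 to 3541 CPM in these Cre-neg and 71.3 to 252 CPM in these mac-TFEB libraries, and their part in the difference was not tested. In CCR2pos cells the same contrast gave 0.004 ± 0.13 (95% interval -0.25 to 0.26, adjusted p of 1), with TFEB-TG Cre-neg libraries at 49.5, 46.0, 52.4 and 52.7 CPM.

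In CCR2pos TFEB-TG Cre-neg cells Dnmt1 lay above the range of TFEB-wt Cre-neg cells, a difference that did not pass the test. TFEB-wt Cre-neg libraries there read 37.6, 40.9, 44.3, 40.1 and 40.7 CPM, all below the 4 TFEB-TG values just given. The difference was 0.30 ± 0.12 (95% interval 0.06 to 0.55) with an adjusted p of 1, and 1.02% of all genes had the TFEB-TG group wholly above. CCR2neg TFEB-wt Cre-neg libraries read 44.4, 43.3, 40.4, 37.7 and 34.9 CPM. They lay between the low and the high TFEB-TG libraries, at 0.12 ± 0.13 with an adjusted p of 0.769, and at -0.051 without TFEB-TG library 4.

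Fractions and Cre status in TFEB-wt did not move Dnmt1 past the test. CCR2pos minus CCR2neg was 0.02 ± 0.12 in TFEB-wt Cre-neg, -0.03 ± 0.12 in CX3CR1-Cre, 0.20 ± 0.13 in TFEB-TG Cre-neg and -0.20 ± 0.13 in mac-TFEB cells, with adjusted p from 0.477 to 0.987. In mac-TFEB cells all 4 label numbers were lower in CCR2pos. CX3CR1-Cre minus Cre-neg was 0.12 ± 0.12 in CCR2neg cells, where all 5 numbers were higher, and 0.07 ± 0.12 in CCR2pos cells, where 2 of 5 did. Adjusted p were 0.740 and 1. Group means of Dnmt1 ran from 57.9 ± 5.06 CPM in CCR2neg mac-TFEB, through 50.3 ± 2.61 and 50.1 ± 3.12 in CCR2pos mac-TFEB and TFEB-TG Cre-neg, 43.6 ± 4.28 in CCR2neg CX3CR1-Cre and 43.5 ± 12.5 in CCR2neg TFEB-TG Cre-neg, to 40.1 ± 3.93 in CCR2neg TFEB-wt Cre-neg cells (SD, n = 4 in TFEB-TG and 5 in TFEB-wt). Only the steps from 57.9 to 50.3 and from 50.1 to 43.6 exceeded the SDs of the groups beside them, and libraries overlapped at both.

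Dnmt1 acts at the replication fork, and its level is set beside 22 listed genes of S phase and mitosis. Their summed level was 1003 ± 296 CPM in CCR2neg mac-TFEB (SD, n = 4) and 632 ± 117 in CCR2neg CX3CR1-Cre cells (SD, n = 5). In CCR2pos cells the sums were 890 ± 241 and 672 ± 109 CPM. TFEB-TG Cre-neg cells had 742 ± 205 and 740 ± 151 CPM in the 2 fractions, and TFEB-wt Cre-neg cells the lowest sums, 509 ± 60.7 and 535 ± 54.9. Label TFEB-TG 4 had both the highest Dnmt1 and the highest sum in all 4 TFEB-TG groups. The part of these genes in the differences of Dnmt1 was not tested.

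**Figure D4:**
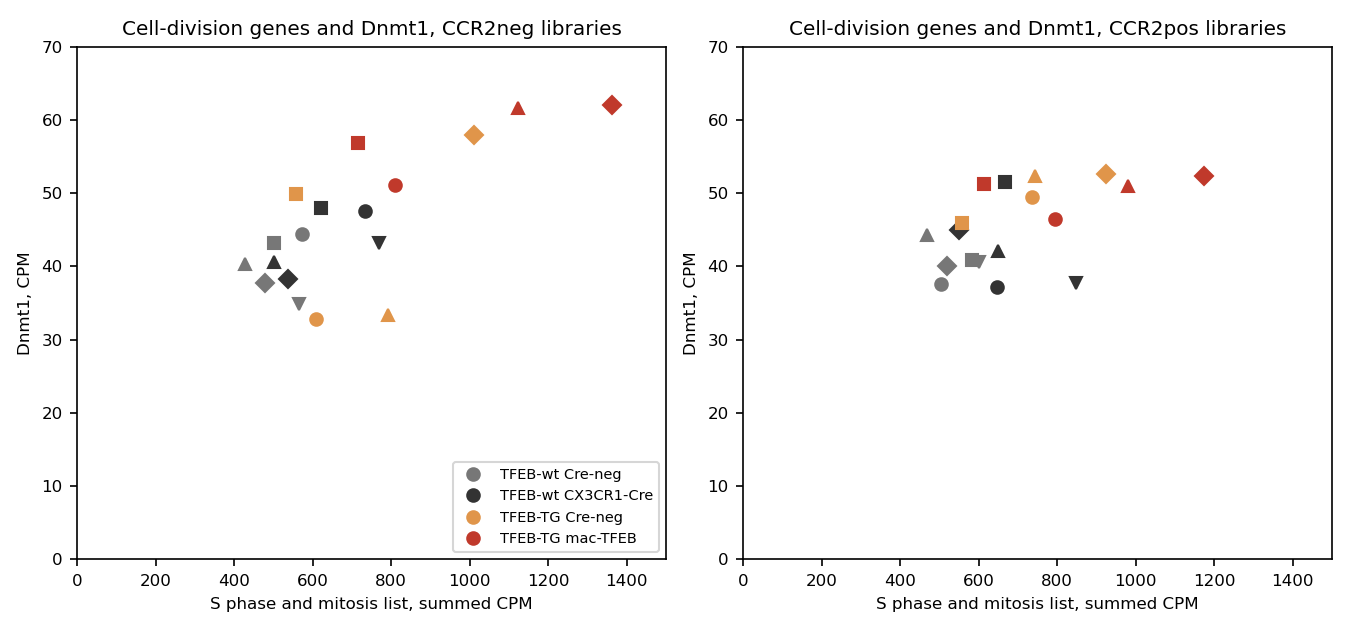
Dnmt1 (vertical axis, CPM) against the summed CPM of 22 genes of S phase and mitosis (horizontal axis) in CCR2neg (left) and CCR2pos (right) libraries, colored by group. In CCR2neg cells the 3 libraries with sums above 1000 CPM read 57.9 to 62.1 CPM of Dnmt1, while 2 TFEB-TG Cre-neg libraries with middling sums read 32.9 and 33.4.

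Tet2 values with and without induced TFEB lay among each other in both fractions. CCR2neg mac-TFEB libraries read 45.4, 48.1, 45.1 and 37.8 CPM. CCR2neg CX3CR1-Cre libraries read 43.2, 45.1, 56.0, 46.4 and 40.2 CPM. The difference was -0.07 ± 0.15 as a description. CCR2pos mac-TFEB libraries read 42.3, 47.3, 48.8 and 47.6 CPM. CCR2pos CX3CR1-Cre libraries read 48.8, 47.6, 69.2, 38.0 and 41.0 CPM. Library 3 of the controls stood far above the rest, and the difference was -0.07 ± 0.15 (95% interval -0.37 to 0.22, adjusted p of 1). It took the other sign, 0.08, without the 4 libraries of label TFEB-wt 3. The interval reaches from a lower to a higher level, so equal levels are not shown.

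The clearest contrast for Tet2 was between fractions in TFEB-wt Cre-neg cells. CCR2pos libraries read 56.9, 51.0, 60.9, 38.0 and 49.8 CPM. CCR2neg libraries read 36.2, 34.3, 52.1, 36.4 and 34.0 CPM. Every label number was higher in CCR2pos, by 0.06 to 0.65 on the log2 scale, although the groups overlapped through CCR2neg library 3. The fitted difference of 0.41 ± 0.14 (95% interval 0.13 to 0.69) had an adjusted p of 0.157 (edgeR, 2.35% of genes passing). With the label number as a block it passed, at 0.42 ± 0.10 and an adjusted p of 0.0054, where 808 of 12795 genes passed. Among 10 edgeR fits that each left out 1 library, the smallest adjusted p was 0.0341, at 0.54. That was without CCR2neg library 3, the library that made the overlap.

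The other 3 pairs of fractions did not repeat this size. Tet2 was higher in CCR2pos by 0.11 ± 0.16 in TFEB-TG Cre-neg cells, where libraries read 41.7, 55.2, 47.6 and 57.9 CPM in CCR2pos and 43.4, 53.8, 41.4 and 49.0 in CCR2neg. The values in CX3CR1-Cre and mac-TFEB cells were 0.08 ± 0.14 and 0.08 ± 0.16. Adjusted p were 0.812, 0.876 and 0.958, in comparisons where 3.26%, 0.797% and 0.539% of genes passed. Whether the fraction difference itself differs between these groups was not tested. In TFEB-wt CCR2neg cells all 5 label numbers had more Tet2 with CX3CR1-Cre than without, at 0.26 ± 0.14 with an adjusted p of 0.459 (2.6% of genes passing). In CCR2pos cells 1 of 5 did, at -0.07 ± 0.14.

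Neither the cassette nor Cre status in TFEB-TG gave a call for Tet2. TFEB-TG minus TFEB-wt Cre-neg cells was 0.28 ± 0.15 in CCR2neg (adjusted p of 0.442), 0.41 without TFEB-wt library 3, and -0.02 ± 0.15 in CCR2pos cells (adjusted p of 1). Mac-TFEB minus TFEB-TG Cre-neg was -0.09 ± 0.16 and -0.12 ± 0.16, with adjusted p of 0.970 and 1. Label TFEB-wt 3 had the highest Tet2 of all 4 TFEB-wt groups. Group means of Tet2 ran from 51.3 ± 8.69 CPM in CCR2pos to 38.6 ± 7.63 in CCR2neg TFEB-wt Cre-neg cells (SD, n = 5 each), with all other groups between 44.1 and 50.6 and no neighbours in the order apart by more than the larger of their SDs. Tet2 shares 43 exon bases with an antisense model, Gm42567, which is not analysed here.

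Tet3 had its largest fitted values between fractions of Cre-neg cells, in both genotypes short of the test over all genes. In TFEB-TG, CCR2pos libraries read 57.4, 53.9, 51.2 and 59.9 CPM. CCR2neg libraries read 41.5, 36.7, 38.0 and 49.4 CPM. All CCR2pos libraries lay above all CCR2neg libraries, which was so for 4.62% of genes. The difference of 0.43 ± 0.14 (95% interval 0.14 to 0.71) had an adjusted p of 0.103 by edgeR. With the label block 0.43 ± 0.13 had an adjusted p of 0.0329. With that block 1228 of 12795 genes passed, against 3.26% without it.

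In TFEB-wt Cre-neg cells Tet3 read 49.9, 45.4, 65.5, 46.2 and 48.0 CPM in CCR2pos. CCR2neg libraries read 45.4, 32.5, 53.1, 43.6 and 34.4 CPM. All 5 label numbers were higher in CCR2pos, by 0.08 to 0.48, while the groups overlapped through CCR2neg library 3. The fitted 0.29 ± 0.13 had an adjusted p of 0.361. Monocyte markers, of which 6 of 6 were measured, include Ccr2, the gene of the sort. Ccr2 alone read 551 to 1247 CPM in CCR2pos and 27.3 to 114 CPM in CCR2neg cells of this group. The sum of the 6 markers, which differs between fractions in part by construction, was 679 to 1498 and 77.0 to 1089 CPM there. In TFEB-TG Cre-neg cells the sums were 969 to 1410 and 156 to 3541 CPM. Dendritic cell markers, 8 of 8, summed to 145 to 208 and 87.8 to 166 CPM in TFEB-wt and to 86.2 to 177 and 80.6 to 179 CPM in TFEB-TG Cre-neg cells. Ly6c2 was at 0 in 2 libraries of the series and Clec9a in 2. Their part in the values of Tet2 and Tet3 was not tested.

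In the CX3CR1-Cre and mac-TFEB groups the fitted difference of Tet3 between fractions was smaller, and whether it differs from that in Cre-neg cells was not tested. CCR2pos CX3CR1-Cre libraries read 38.7, 50.6, 36.2, 40.6 and 45.4 CPM. CCR2neg CX3CR1-Cre libraries read 49.1, 37.2, 56.7, 48.0 and 41.0 CPM. Label number 2 was higher and number 3 lower in CCR2pos by the widest margins, and the fitted value was -0.13 ± 0.13 with an adjusted p of 0.748. Mac-TFEB cells read 47.7, 46.1, 53.6 and 47.5 CPM in CCR2pos. CCR2neg mac-TFEB libraries read 51.0, 40.6, 41.8 and 43.1 CPM. That gave 0.14 ± 0.14, with an adjusted p of 0.890.

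Read across Cre status, Tet3 in CCR2pos TFEB-wt cells was lower with CX3CR1-Cre than without in 4 of 5 label numbers. The difference of -0.27 ± 0.13 (95% interval -0.52 to -0.02) had an adjusted p of 0.855, in a comparison where 0.00782% of genes passed. In CCR2neg cells all 5 numbers were higher with CX3CR1-Cre, at 0.15 ± 0.13 and an adjusted p of 0.675. TFEB gave -0.07 ± 0.14 in CCR2neg, as a description, and 0.20 ± 0.14 in CCR2pos cells (adjusted p of 1). The cassette gave -0.02 ± 0.14 and 0.12 ± 0.14 (adjusted p of 0.980 and 1). Group means of Tet3 ran from 55.6 ± 3.82 CPM in CCR2pos to 41.4 ± 5.69 in CCR2neg TFEB-TG Cre-neg cells (SD, n = 4 each), again with no neighbours apart by more than the larger of their SDs.

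**Figure D5:**
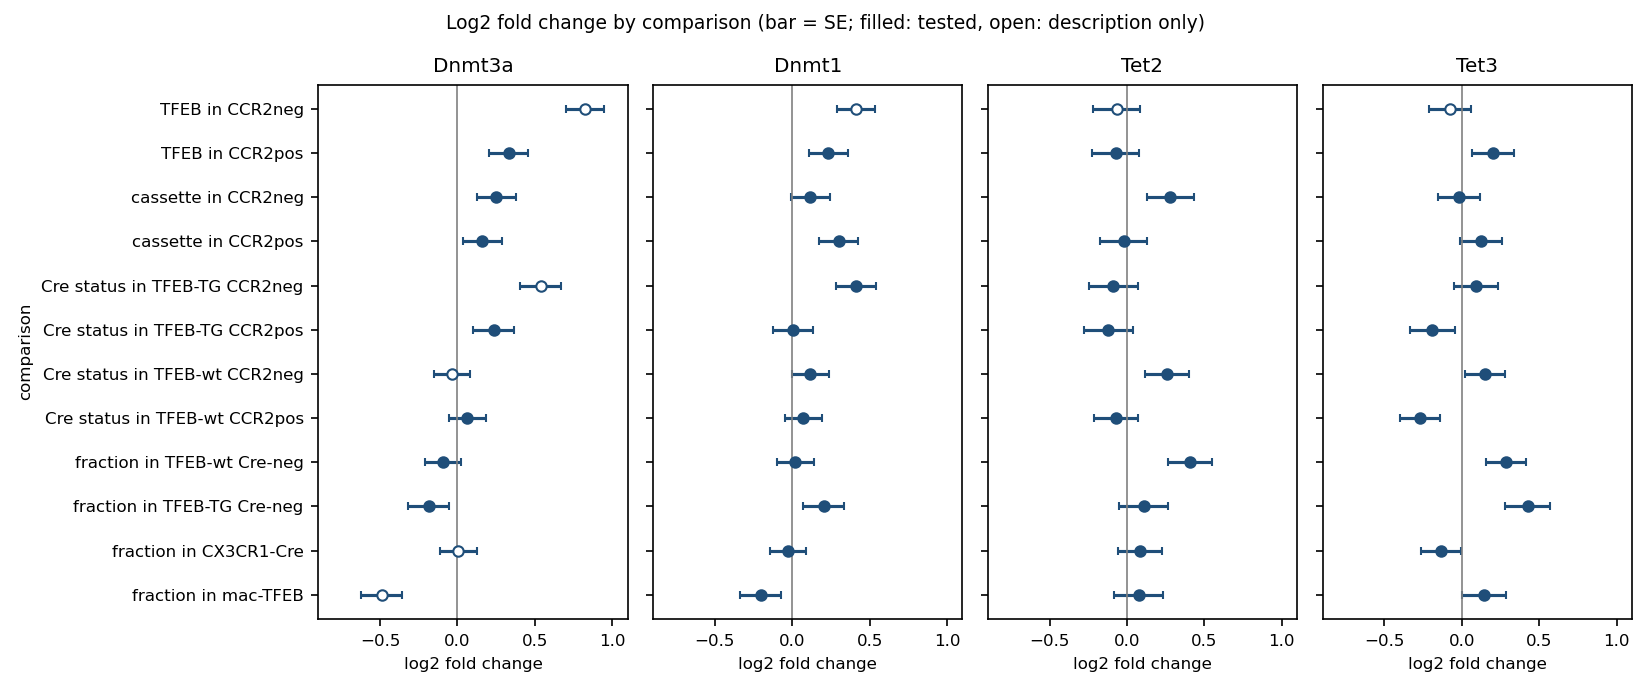
Fitted log2 fold change (horizontal axes) of the 4 genes in 12 comparisons (vertical axis) with the standard error as bar, filled where a test is given and open where the value is a description. Dnmt3a and Dnmt1 lie right of 0 in both TFEB comparisons, and Tet2 and Tet3 lie to the right in both Cre-neg fraction comparisons.

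In all, 44 tests of the 4 mRNAs were read over 11 comparisons and the subtraction of the cassette. By edgeR on all 36 libraries without the label block, none had an adjusted p under 0.05. With the label block, the differences of Tet2, Tet3 and Dnmt1 given above passed. Pearson's r of log2 CPM was 0.52 for Dnmt3a with Dnmt1 and 0.43 for Tet2 with Tet3, and -0.13 to 0.23 for the 4 writer-eraser pairs, a description over 36 libraries that share groups and labels. Taken within groups, r was 0.03 for Dnmt3a with Dnmt1 and 0.32 for Tet2 with Tet3.

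Other genes of the methylation machinery were read from lists of 94 genes, of which 93 were measured and 7 were called in at least 1 of 15 comparisons, where 7.48% of all genes were. Uhrf1, which recognises hemimethylated DNA and brings Dnmt1 to it, was the 1 call among 10 partners of maintenance, in a comparison where 1.38% of all genes passed. It rose with TFEB in CCR2neg cells, from 14.3 ± 5.38 to 30.3 ± 9.31 CPM (SD, n = 5 and 4), by 1.09 ± 0.27 with an adjusted p of 0.0314 (edgeR). This is the comparison that picked Dnmt3a, and the lists were chosen with earlier results known. Its calls, here and below, are therefore descriptions. In that comparison 9 of 10 partners were above 0, with a median of 0.35 on the log2 scale against 0.01 over all genes. In CCR2pos cells none passed and the median was 0.26 against -0.004. The cassette in Cre-neg cells gave 10 of 10 above 0 and a median of 0.46 in CCR2neg cells, again with none called. Subtracting the cassette left medians of -0.04 in CCR2neg and 0.09 in CCR2pos cells, with 0 calls in either.

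Cell-division genes gave 3 calls among 22, all of them with TFEB in CCR2neg cells, where 1.38% of all genes passed. Aurka, a mitotic kinase, rose by 0.82 ± 0.20 (adjusted p of 0.0283), Rrm2, a subunit of ribonucleotide reductase, by 1.05 ± 0.28 (0.0499) and Cenpe, a kinetochore motor, by 0.89 ± 0.23 (0.0388) with TFEB in CCR2neg cells. Cenpe was also called for the cassette in CCR2neg cells, at 1.13 ± 0.23 with an adjusted p of 0.0254, where 0.406% of genes passed. The 4 comparisons of Cre status, TFEB-wt included, had no call and 21 or 22 of the 22 above 0, with medians of 0.41 and 0.33 in TFEB-wt and 0.40 and 0.28 in TFEB-TG (CCR2neg and CCR2pos). All 22 were above 0 in both TFEB and both cassette comparisons, with medians of 0.74 and 0.47 for TFEB and 0.62 and 0.52 for the cassette in CCR2neg and CCR2pos cells. With the cassette subtracted the medians were 0.12 and -0.0077, and 15 and 11 of the 22 were above 0.

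Partners of de novo methylation and the histone enzymes that guide it gave 1 call in 10, in a comparison where 2.6% of all genes passed. Dnmt3l, a regulator of Dnmt3a without catalytic activity, was at 0.211 ± 0.303 CPM in CCR2neg CX3CR1-Cre and 2.05 ± 0.689 in CCR2neg TFEB-wt Cre-neg cells (SD, n = 5 each), a fall of -3.29 ± 0.80 with an adjusted p of 0.0176 at levels near the limit of detection. With TFEB the list gave medians of 0.13 in both fractions and no call. Kmt2a, a histone H3 methyltransferase, had the smallest p of the list in CCR2pos cells, at 0.39 ± 0.15 with an adjusted p of 1.

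Genes of oxidation and repair gave 1 call among 17 measured of 18, in a comparison where 3.26% of all genes passed. Gadd45b, a stress-induced gene linked to demethylation, was higher in CCR2pos than CCR2neg TFEB-TG Cre-neg cells, at 268 ± 34.6 against 171 ± 40.3 CPM (SD, n = 4 each), by 0.65 ± 0.18 with an adjusted p of 0.0383. In the comparison where Tet3 did not overlap, the list's median was 0.28 against -0.03 over all genes, with 10 of 17 above 0. Xrcc1, a scaffold of base excision repair, had -0.85 ± 0.22 for the cassette in CCR2neg cells with an adjusted p of 0.0697.

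Methyl donor and cofactor genes gave 1 call in 21, in a comparison where 2.6% of all genes passed. Idh1, which makes the 2-oxoglutarate that TET enzymes need, fell with CX3CR1-Cre in TFEB-wt CCR2neg cells, from 386 ± 68.7 to 257 ± 16.1 CPM (SD, n = 5 each), by -0.59 ± 0.13 with an adjusted p of 0.00929. The 13 readers of methylated DNA gave no call in any comparison, and their medians for TFEB were 0.03 in CCR2neg and 0.10 in CCR2pos cells.

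Among 7169 genes with a mean of at least 10 CPM, those most like Dnmt3a over 36 libraries by Pearson's r of log2 CPM were Alcam (0.80), Gpnmb (0.79), Plxnc1 (0.78), Akr1a1 (0.77) and Ctsd (0.77). Alcam is a cell adhesion molecule, and Ctsd is a lysosomal protease. For Dnmt1 they were Psd4 (0.75), Atp6v0a1 (0.71), Rrm1 (0.69), Rfc1 (0.69) and Dsn1 (0.68), of which Rrm1 and Rfc1 serve DNA replication. Those most like Tet2 included Wapl (0.76), Gsk3b (0.74), Dgat1 (0.73) and Rbm25 (0.73). Tet3 was followed by Etv6 (0.73), Dopey2 (0.72), Rnf213 (0.70), Mycbp2 (0.70) and Srrm2 (0.70). These are descriptions over libraries that share groups, label numbers and depth.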

How the data were processed

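PolyA libraries were made with the SMARTer Ultra Low kit, amplified for 12 cycles and sequenced as single reads of 50 bases without strand, per the labels' protocols. Per the submitters' processing notes, the build was GRCm38 and the tools included HTSeq, edgeR, DESeq, Bowtie2, TopHat and TopHat2 2.0.10, with no order given. The authors deposited raw read counts of 12795 genes, filtered by a rule not given in the sources used here. Of these, 12783 matched GENCODE vM21 by identifier. CPM and log2 fold changes were computed here with edgeR 4.0.16 (R 4.3.3): TMM scaling, 1 fit of 8 group means over 36 libraries, a quasi-likelihood F-test and Benjamini-Hochberg adjustment over all genes, called under 0.05. The standard error is the log2 fold change over the square root of F. The expression filter (minimum count 10) removed no gene. At a common dispersion of 0.0943 the spread between libraries, not counting error, sets the precision. The fit was also run on simulated counts, which lacked the correlation between libraries of a label. No conclusion is drawn from that run.

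The 4 genes and all lists were chosen with earlier results of these data known. Pathway genes are named if called, or if among the 2 smallest p of a list, and likeness takes the 5 highest r, of which 1 is not reported here. Same-label pairs of libraries correlated at 0.0566 to 0.708 (mean 0.487) in their deviations from group means. Pairs that differ in fraction or Cre status alone were all above 0.2, so the label number was used as a block within genotypes. Across genotypes the same number gave a mean of -0.0473. Alternatives were DESeq2 1.42.0, limma 3.58.1 voom, other filters and scaling, blocks, a term for Xist at 10 CPM and leaving out each library. All 64 within-group pairs of libraries differed beyond sampling noise.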

Additional observations from a re-analysis of the deposited data

Results flagged for a closer look

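In each group of 4 or 5 libraries, each of the 4 mRNAs was checked for a library far from the others, and 2 of 32 checks found one, where chance gives about 1 in 20. Both belong to label TFEB-wt 3. Tet2 read 52.1 CPM in TFEB-wt CCR2neg Cre-neg library 3, against 36.4 CPM in the nearest other library, a gap of 0.87 of the group's range. Tet3 read 65.5 CPM in TFEB-wt CCR2pos Cre-neg library 3, against 49.9 CPM in the nearest, a gap of 0.779 of the range.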

How the results depend on the processing

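None of the 44 tested values of Dnmt3a, Dnmt1, Tet2 and Tet3 was called, and 796 of 848 values under alternatives kept direction and call. The label number as a replicate block brought 3 under 0.05: Tet2 between fractions in TFEB-wt Cre-neg (0.42), Tet3 between fractions in TFEB-TG Cre-neg (0.43) and Dnmt1 with Cre status in TFEB-TG CCR2neg cells (0.43). It also raised counts of calls over all genes, in that order from 301 to 808, from 417 to 1228 and from 20 to 301. It changed no other call of the 4 genes. Signs of tested values turned only where the fitted value lay from -0.13 to 0.12 on the log2 scale. The turned values ran from -0.074 to 0.10.

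With limma-voom the signs that turned were Tet2 with TFEB in CCR2pos (0.034) and with the cassette in CCR2pos (0.029), Tet3 with the cassette in CCR2neg (0.10) and with Cre status in TFEB-TG CCR2neg (-0.021), Dnmt1 with Cre status in TFEB-TG CCR2pos (-0.010) and Tet2 beyond the cassette in CCR2pos (0.00479). Without label TFEB-TG 3 they were Tet3 with the cassette in CCR2neg (0.024), Tet2 with the cassette in CCR2pos (0.00719) and Tet3 beyond the cassette in CCR2pos (-0.00624), and Dnmt3a with TFEB in CCR2neg moved to 0.65. Without label TFEB-wt 3 they were Tet2 with TFEB (0.083), the cassette (0.044) and beyond it (0.039) in CCR2pos, Tet3 with the cassette in CCR2neg (0.084), beyond it in CCR2pos (-0.074) and between fractions in CX3CR1-Cre (0.00191), and Dnmt1 between fractions in TFEB-wt Cre-neg (-0.012). Tet2 between fractions there passed, at 0.47. The cause was not tested.

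Leaving out each library in turn gave these ranges of tested values, among which are all that turn sign or change a call. Cre status gave 0.29 to 0.58 for Dnmt1 in TFEB-TG CCR2neg, -0.032 to 0.040 for Dnmt1 in TFEB-TG CCR2pos, -0.0066 to 0.12 for Dnmt1 and -0.23 to 0.0075 for Tet2 in TFEB-wt CCR2pos. Beyond the cassette in CCR2pos gave -0.11 to 0.013 for Dnmt1, -0.13 to 0.10 for Tet2 and -0.026 to 0.16 for Tet3. TFEB in CCR2pos gave -0.15 to 0.081 for Tet2. The cassette gave -0.051 to 0.24 for Dnmt1 and -0.11 to 0.084 for Tet3 in CCR2neg and -0.11 to 0.062 for Tet2 in CCR2pos. Fractions gave -0.10 to 0.021 for Dnmt1 and -0.070 to 0.17 for Tet2 in CX3CR1-Cre, and -0.024 to 0.052 for Dnmt1 and 0.34 to 0.54 for Tet2 in TFEB-wt Cre-neg. For Dnmt3a, whose tested values kept their sign, the cassette gave 0.091 to 0.35 in CCR2neg and 0.096 to 0.24 in CCR2pos. Beyond the cassette in CCR2pos the range was 0.080 to 0.23. It was -0.28 to -0.024 between fractions in TFEB-TG Cre-neg and 0.14 to 0.30 with Cre status in TFEB-TG CCR2pos. Dnmt3a values given without a test took both signs between fractions in CX3CR1-Cre, at -0.033 to 0.043. They also did with Cre status in TFEB-wt CCR2neg, at -0.084 to 0.0050. Among other tested values beyond 0.2 on the log2 scale, those that moved by over 1.5 times follow. Between fractions they were 0.088 to 0.37 for Dnmt1 in TFEB-TG Cre-neg and 0.18 to 0.38 for Tet3 in TFEB-wt Cre-neg. With Cre status they were 0.16 to 0.38 for Tet2 in TFEB-wt CCR2neg and -0.34 to -0.16 for Tet3 in TFEB-wt CCR2pos.

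Counts of called genes moved more than those values. The cassette in CCR2neg called 52 genes, from 1 with its libraries alone to 288 with DESeq2 and from 6 to 440 leaving out a library. TFEB in CCR2neg called 176, from 67 with its libraries alone to 1351 with limma-voom, 62 without label TFEB-TG 3, and from 59 (without mac-TFEB library 3) to 260 leaving out a library. Genes below the authors' filter were not analysed here.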
